A study of Homo sapiens with 2 samples.

Results

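Interferon-stimulated genes were described here as 36 named human genes: the transcription factors STAT2, IRF1, IRF7 and IRF9, the RNA sensors, the IFIT, OAS and MX families, ISG15 with the enzymes of its conjugation, further induced genes, and the ligand gene IFNB1. They were taken by symbol from a table of 55773 gene symbols. All 36 were present, each in 1 row. RNA was sequenced from BFTC 905, an established line from a human urothelial carcinoma of the bladder, and the study compared cells with and without a plasmid for ANGPTL4, a secreted inhibitor of lipoprotein lipase whose own level is low in this line. The vector control library came from BFTC 905 cells with the empty plasmid pcDNA3.1-myc-His (-) A, and the ANGPTL4 library from BFTC 905 cells with a plasmid overexpressing ANGPTL4. Both kinds of cell were grown in RPMI-1640 with serum and selected with G418, so transfection and drug are shared by both. The labels speak of stable clones and do not say whether 1 clone or a pool was sequenced. Each group is a single library. Differences below therefore lack any replicate check and carry no p-value, and they are differences between 2 libraries, not between the conditions.

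Interferons are secreted alarm proteins of virus infection. Type I interferons (IFN-alpha and IFN-beta) and type III interferons (IFN-lambda) bind different receptors on the cell surface, and both use the kinases JAK1 and TYK2 to assemble the complex ISGF3, which includes STAT2 and IRF9. ISGF3 binds a short DNA motif, the interferon-stimulated response element, in front of genes whose products degrade, trap or tag viral RNA and protein. Epithelial cells, urothelium included, can respond to both types, and carcinoma lines often keep part of the programme active without added interferon.

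The core of the response element can be written as GAAA, any 2 bases and GAAA, or TTTC, any 2 bases and TTTC when read on the other strand. RefSeq promoters (GRCh38.p14, 250 bases before to 50 after a start) were found for 30 of the 36 members, DDX58 under its newer symbol RIGI, and 19 of these 30 (63.3%) held the motif on either strand in at least 1 promoter. The same was true of 4.38% of all 27305 symbols with a promoter, and of 3.57% of 35116 promoters. The stretches below lie before the start of 8 members and are shown because they hold the motif in genes from the highest to among the lowest in level. Of the 4 members with the largest log2 ratios, described further on, IFI35, IRF9 and IFNB1 had promoters without a match, and IFIT2 was not matched. Capitals mark each match, overlapping matches run together, and coordinates are GRCh38.p14, a different build from that of the expression tables.
ISG15 (chr1:1013359-1013424, plus strand): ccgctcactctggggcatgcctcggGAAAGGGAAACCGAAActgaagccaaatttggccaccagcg
DDX60 (chr4:168318771-168318865, minus strand): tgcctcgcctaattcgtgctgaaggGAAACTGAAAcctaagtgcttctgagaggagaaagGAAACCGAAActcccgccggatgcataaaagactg
IFI44 (chr1:78649746-78649788, plus strand): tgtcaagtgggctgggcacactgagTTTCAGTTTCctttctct
IFI44L (chr1:78620259-78620409, plus strand): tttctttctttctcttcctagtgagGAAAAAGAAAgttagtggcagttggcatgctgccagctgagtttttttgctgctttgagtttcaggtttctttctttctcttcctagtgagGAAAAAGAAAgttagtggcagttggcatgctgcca
IFIT1 (chr10:89392482-89392554, plus strand): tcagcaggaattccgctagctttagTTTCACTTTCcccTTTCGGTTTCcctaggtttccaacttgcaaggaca
IFIT3 (chr10:89327816-89327909, plus strand): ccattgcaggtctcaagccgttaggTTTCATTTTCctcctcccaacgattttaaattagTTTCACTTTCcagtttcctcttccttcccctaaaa
IFIT5 (chr10:89414498-89414567, plus strand): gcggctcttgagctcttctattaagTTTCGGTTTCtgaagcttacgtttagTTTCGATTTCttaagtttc
IFI6 (chr1:27672251-27672373, minus strand): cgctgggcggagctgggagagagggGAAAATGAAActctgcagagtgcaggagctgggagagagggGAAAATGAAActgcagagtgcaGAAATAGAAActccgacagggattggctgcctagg
ISG15 carried 2 overlapping matches in the orientation of the gene, the first beginning 113 bases before the start. IFIT1, IFIT3 and IFIT5 carried 2 each on the other strand within the printed stretches, and IFI6 carried 3. A match describes letters in a window and does not show that a factor is bound. Of the 24 measured members with a RefSeq promoter, those with the motif (16) had a median log2 ratio of -0.048 and those without (8) of -0.13. Both medians lay near that of all genes given below. Lower in the ANGPTL4 library were 10 and 5 of them, beside 64.4% of all measured genes.

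Levels are RPKM, reads per kilobase of exon scaled to library size, as the authors deposited them. The steps between RPKM values allowed whole reads to be worked out, 6572767 in the vector control library and 3233596 in the other, a 2.03-fold difference in depth. Ratios below are ANGPTL4 over vector control with exact 95% intervals from these reads, which cover counting error only, and reads that are PCR copies of 1 molecule make them too narrow. For IFIH1, DDX58, IFIT1, IFIT2, OASL, OAS1, ISG15 and IFI44 the reads are minimum numbers. The log2 ratio is log2((RPKM + 1) in ANGPTL4 / (RPKM + 1) in control), which understates differences of low genes. A gene was called measured from 1 RPKM in either library upwards. The targeted gene matched its labels, since ANGPTL4 itself was at 3.92 and 91.2 RPKM, a ratio of 23.2 (18.0 to 30.5). All 7 epithelial markers examined, from EPCAM to KRT19, were at 53.4 RPKM or more in both libraries, whereas CD3E, CD3D, MS4A1 and NKG7 of lymphocytes and CLEC4C, LILRA4 and SPIB of plasmacytoid dendritic cells were listed at 0 in both. The summed level of the 9 leukocyte markers was 1.13 RPKM with the empty vector and 1.15 RPKM with ANGPTL4, most of it CD14. That of the 6 markers of plasmacytoid dendritic cells was 1.01 and 1.21 RPKM. Of these, GZMB was at 0.433 and 1.10 RPKM, IL3RA at 0.446 and 0 RPKM and TCF4 at 0.129 and 0.111 RPKM. The 6 fibroblast markers summed to 4.76 and 4.73 RPKM, most of it COL1A1 (4.14 and 4.06 RPKM), with COL3A1, DCN and LUM at 0. The 4 endothelial ones summed to 0.556 and 0.927 RPKM, with VWF highest (0.383 and 0.530 RPKM) and TEK at 0. Mitochondrial genes held 5.11% and 8.71% of the reads, and the part of this in the ratios below was not tested beyond the scalings named. In bulk RNA, fewer cells that express a gene and less RNA per cell cannot be told apart.

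RNA of a part of the interferon-stimulated genes was measured in both libraries, and the order of the members by level was similar in the 2. Neither untransfected cells nor cells given interferon were among the libraries, so the activity of the programme was not tested. ISG15, OASL and DDX60 were the 3 highest members in each library. At the other end, SAMD9L, MX2, IFI44L, IFI27, IRF7, IFIT3, CMPK2 and XAF1 stayed below 1 RPKM in both, so 28 of the 36 members were measured. Across all 36, Spearman's rho of RPKM between the libraries was 0.959, and across the 11802 measured genes of the tables it was 0.960. These are correlations across genes, which are not independent replicates. The members together held 0.121% of the control reads (Wilson interval at 95%, 0.118 to 0.124) and 0.107% of those with ANGPTL4 (0.103 to 0.110). Without ISG15, OASL and DDX60 the shares were 0.0659% (0.0640 to 0.0679) and 0.0610% (0.0583 to 0.0637). All these shares include members whose reads are minimum numbers, so they are minimum values, and their intervals do not cover that. The totals include the mitochondrial reads. With mitochondrial, ribosomal protein and small RNA genes left out of the total, 14 measured members were higher and 14 lower, with a median log2 ratio of -0.0081.

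**Figure D1:**
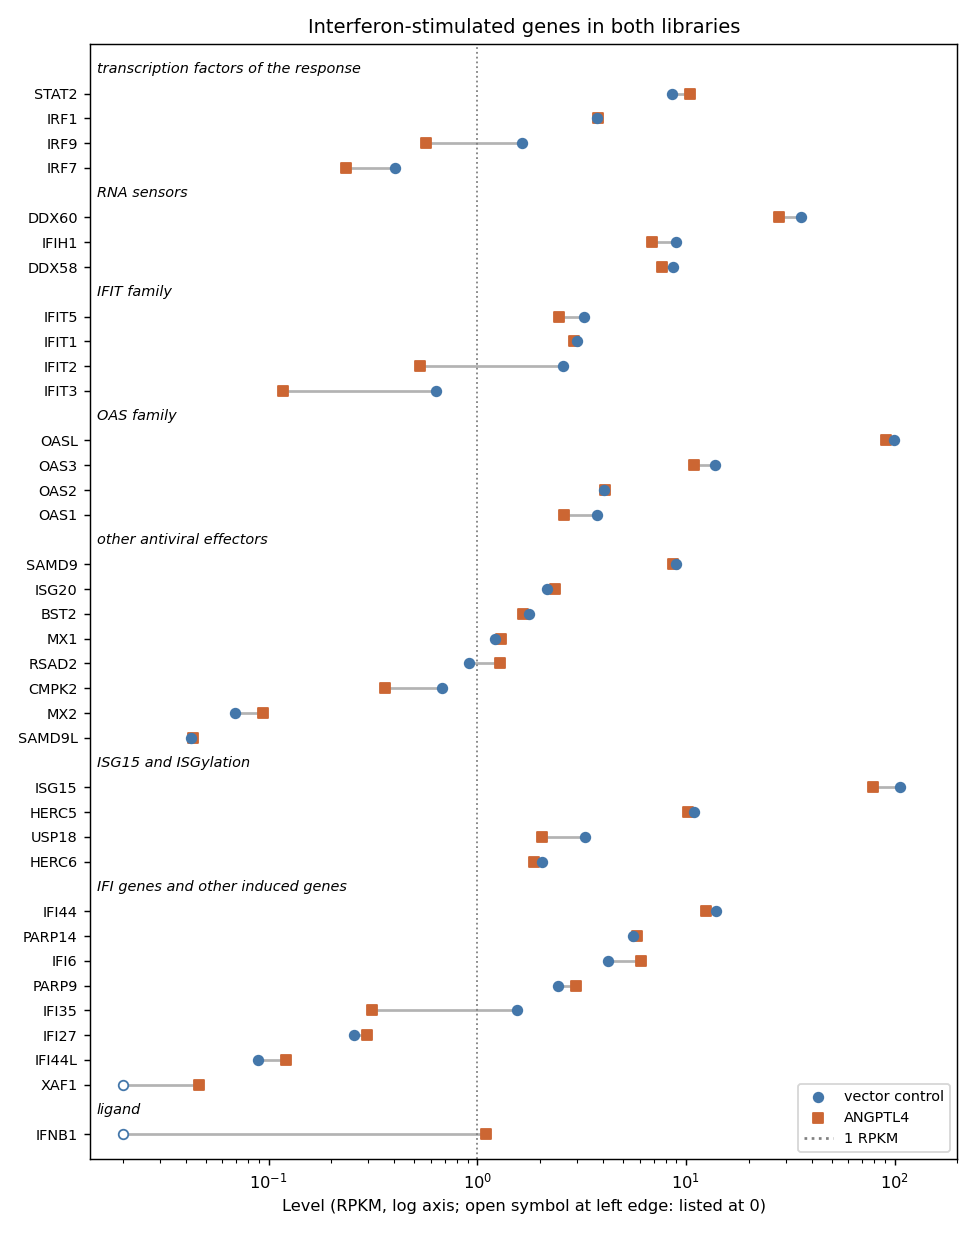
Level in RPKM (log axis) of each of the 36 members in the vector control (circles) and ANGPTL4 (squares) libraries, 1 library each, ordered by role, with genes listed at 0 drawn as open symbols at the left edge. Most pairs of symbols nearly coincide, while IFIT2, IFIT3, IRF9 and IFI35 are further left in the ANGPTL4 library. IFNB1 and XAF1, listed at 0 in the control, are further right there, from 3 reads and 1 read.

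Of the 28 measured members, 18 were lower and 10 higher in the ANGPTL4 library. That is 64.3% lower, and 64.4% of all measured genes were lower. The median log2 ratio of the 28 was -0.093, and that of all measured genes -0.11. The split depends on the scaling: 15 members were higher and 13 lower after centring on the median gene, and 4 higher and 23 lower when both libraries were scaled to the same total, which put the median of all genes at -0.25. Of the 28, 1 was at least 2-fold lower on the log2(RPKM + 1) scale (IFIT2, 3.57% against 1.91% of all measured genes) and 1 at least 2-fold higher (IFNB1, against 1.19%). At least 1.5-fold, 3 were lower (IFIT2, IFI35 and IRF9, 10.7% against 9.25%) and 1 higher (IFNB1, against 3.08%). The counting interval of the ratio lay below 1 for 8 members (28.6% against 26.2% of 11758 measured genes with reads) and above 1 for 1 member (3.57% against 8.37%). With 28 members, shares of 1 to 3 genes are coarse, and the share of intervals below 1 lies near that of all genes. IFNB1 and RSAD2 reached 1 RPKM through the ANGPTL4 library alone, and IFIT2, IFI35 and IRF9 through the control alone, so these had to differ in the direction they did.

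**Figure D2:**
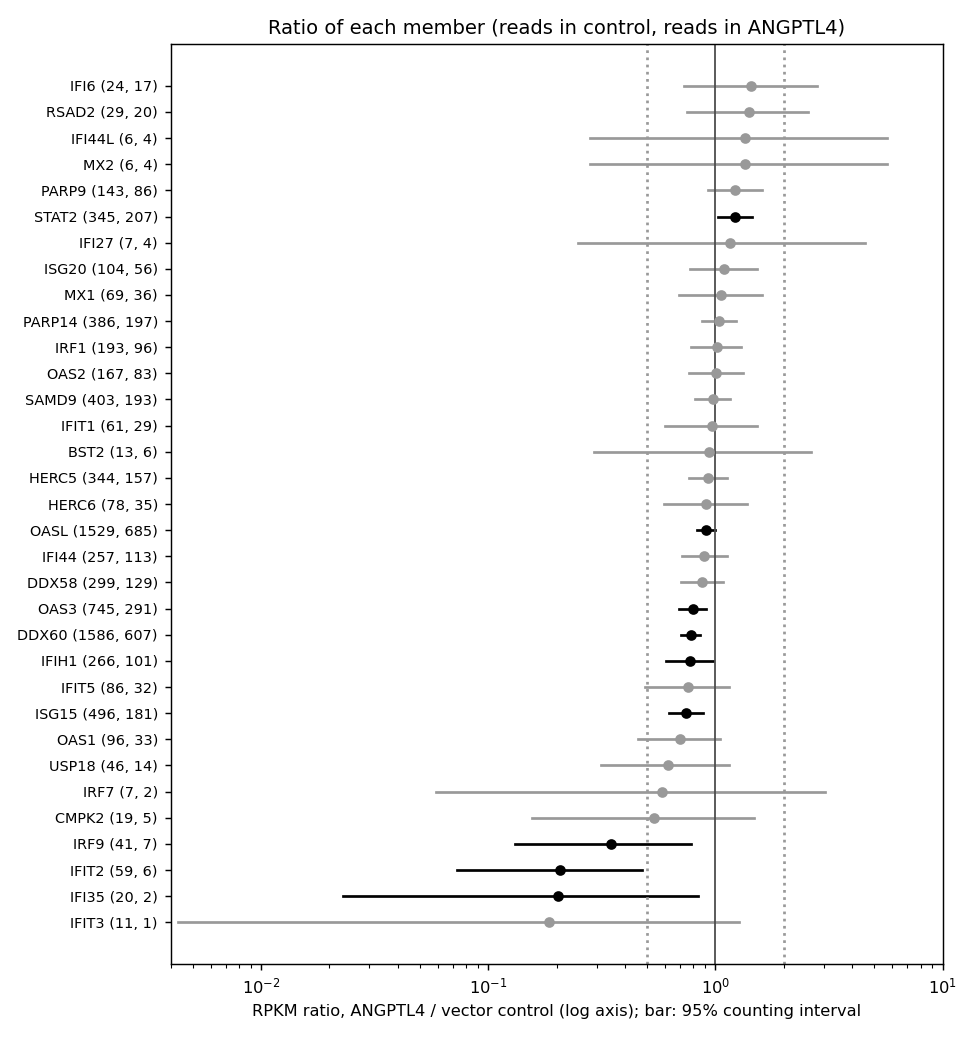
RPKM ratio of ANGPTL4 over vector control (log axis) for the 33 members with enough reads for a ratio, with 95% counting intervals and the reads of both libraries in brackets. Black marks the 9 intervals that leave out 1, of which only that of STAT2 lies above it, and the dotted lines are at 2-fold.

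The transcription factors of the response went in both directions. STAT2, the subunit that gives ISGF3 its activation domain, was at 8.59 RPKM with the empty vector and 10.5 RPKM with ANGPTL4 (345 and 207 reads), a ratio of 1.22 (1.02 to 1.45). IRF9, the DNA-binding subunit, was at 1.64 and 0.571 RPKM (41 and 7 reads), a ratio of 0.347 (0.131 to 0.781). Thus the ANGPTL4 library was the higher one for STAT2 and the lower one for IRF9. Under the scalings tried, the log2 ratio of STAT2 lay between 0.10 and 0.37 and that of IRF9 between -0.81 and -0.64. IRF9 counted as measured through the control alone, so its direction was set by that minimum. A kept sign is therefore no test of these directions. The region of IRF9 (chromosome 14, 24630262 to 24635774, hg19) lies wholly within that of another row, named for a genomic clone, which was at 1.24 and 1.42 RPKM, so the division of reads between those rows is uncertain. IRF1, a factor induced by interferons and by NF-kB, was at 3.77 and 3.81 RPKM, a ratio of 1.01 (0.783 to 1.30). IRF7, the amplifier of type I interferon transcription, was at 0.405 and 0.235 RPKM from 7 and 2 reads, too few to tell the libraries apart.

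All 3 RNA sensors were lower in the ANGPTL4 library, as were 64.4% of all measured genes. DDX58 was lower under all but 1 of the scalings. The median log2 ratio of the 3 was -0.33, and that of all measured genes -0.11. Intervals lay below 1 for 2 of the 3, beside 26.2% of all measured genes with reads, and shares of 3 genes are coarse. DDX60, a helicase that has been described as a cofactor of RIG-I, was at 35.7 RPKM with the empty vector and 27.8 RPKM with ANGPTL4, a ratio of 0.778 (0.707 to 0.855). In the control it lay above 94.3% of all genes listed above 0. IFIH1, which encodes MDA5, the sensor of long double-stranded RNA, was at 8.94 and 6.90 RPKM, a ratio of 0.772 (0.608 to 0.974). DDX58, which encodes RIG-I, the sensor of short RNA with a triphosphate end, was at 8.71 and 7.64 RPKM, and its interval of 0.708 to 1.08 included 1. When genes were centred within bins of exon length and GC, the log2 ratio of DDX58 was above 0 (0.039), and DDX60 and IFIH1 stayed lower under each scaling.

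The IFIT genes, whose products bind foreign or uncapped RNA and block its translation, lie next to each other on chromosome 10, and their ratios differed. IFIT2 (91061712 to 91069033, hg19) was at 2.57 RPKM with the empty vector and 0.532 RPKM with ANGPTL4, from 59 and 6 reads. Its ratio of 0.207 (0.0729 to 0.477) was the one interval among the members that lay wholly below 0.5, and its log2 ratio was between -1.28 and -1.01 under the scalings tried. IFIT3 (91087651 to 91100728), whose product binds that of IFIT1, was at 0.634 and 0.117 RPKM from 11 and 1 reads, with a ratio of 0.185 and an interval of 0.00429 to 1.27 that included 1. IFIT1 (91152303 to 91163745) was at 3.01 and 2.91 RPKM, a ratio of 0.966 (0.599 to 1.53), and IFIT5, a relative that binds cellular and viral RNA (91174343 to 91180758) at 3.26 and 2.46 RPKM, a ratio of 0.756 (0.488 to 1.15). The intervals of IFIT2 and IFIT1 did not overlap. IFIT2 has the lowest log2 ratio of all members and counted as measured through the control alone. Setting it against IFIT1 is therefore no test of a difference between them. IFIT1 was higher in the ANGPTL4 library under 3 of 5 scalings, and IFIT2 and IFIT5 under none. Of the 4, only IFIT2 had an interval that left out 1. The annotated region of the lysosomal lipase gene LIPA covers those of IFIT1, IFIT2 and IFIT3, and LIPA was at 27.8 and 21.9 RPKM. How the authors assigned reads where these genes overlap is not given in the sources used here, and the part of that overlap in the values of IFIT2 was not tested.

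Among the oligoadenylate synthetases, which make the messenger that activates the nuclease RNase L, the catalytically inactive family member OASL was by far the highest. OASL was at 99.6 RPKM with the empty vector and 90.7 RPKM with ANGPTL4 (1529 and 685 reads), a ratio of 0.911 (0.831 to 0.997), and lay above 98.5% and 98.3% of genes listed above 0. OAS3 was at 13.7 and 10.9 RPKM, a ratio of 0.794 (0.691 to 0.910). OAS2 was at 4.06 and 4.10 RPKM, a ratio of 1.01 (0.767 to 1.32), and OAS1 at 3.74 and 2.61 RPKM, a ratio of 0.699 (0.456 to 1.05). OAS1, OAS3 and OAS2 stand in this order within a short stretch of chromosome 12, and OAS3 in the middle was the highest of the 3 in both libraries. OASL lies elsewhere on the same chromosome. OAS2 was lower when both libraries were scaled to the same total, and OAS1, OAS3 and OASL were lower under each scaling. For OASL the difference nearly vanished under some of them. Its log2 ratio was -0.13 as deposited, -0.022 after centring on the median gene and -0.016 within bins of exon length and GC. It was -0.026 when mitochondrial, ribosomal protein and small RNA genes were left out of the total.

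ISG15 is a ubiquitin-like protein, HERC5 the ligase that attaches it to new proteins, and USP18 the protease that removes it and also restrains the type I interferon receptor. ISG15 (chromosome 1, 948803 to 949920, hg19) was at 106.1 RPKM in the control, the highest of all members there, and at 78.7 RPKM in the ANGPTL4 library, where it was second to OASL. The ratio was 0.742 (0.622 to 0.881) from 496 and 181 reads. HERC5 was at 11.0 and 10.2 RPKM, a ratio of 0.928 (0.763 to 1.12), and its neighbour HERC6 at 2.05 and 1.87 RPKM, a ratio of 0.912 (0.594 to 1.38). USP18 was at 3.29 and 2.03 RPKM, a ratio of 0.619 with an interval of 0.314 to 1.15. ISG15 and USP18 were lower under each scaling, while HERC5 and HERC6 were higher after centring on the median gene or within bins of exon length and GC, and HERC5 also when mitochondrial, ribosomal protein and small RNA genes were left out of the total.

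For all 5 measured genes among the other antiviral effectors the interval included 1. That does not show a small difference, since the intervals of BST2 and RSAD2 also included 2-fold. SAMD9, a restriction factor of poxviruses, was at 8.95 RPKM with the empty vector and 8.71 RPKM with ANGPTL4, a ratio of 0.973 (0.816 to 1.16). ISG20, an exonuclease of viral RNA, was at 2.15 and 2.35 RPKM (interval 0.776 to 1.53). BST2 (tetherin), which holds budding virions on the cell, was at 1.77 and 1.66 RPKM from 13 and 6 reads (interval 0.292 to 2.65). MX1, a GTPase that traps viral nucleocapsids, was at 1.22 and 1.29 RPKM (interval 0.688 to 1.61). RSAD2 (viperin), which makes a chain-terminating nucleotide, was at 0.913 and 1.28 RPKM (interval 0.752 to 2.56). CMPK2, a mitochondrial nucleotide kinase whose region overlaps that of RSAD2 by 830 bases, was at 0.674 and 0.361 RPKM from 19 and 5 reads. Of this pair RSAD2 was the higher in the ANGPTL4 library and CMPK2 the lower, and both intervals included 1. Among the 5 measured effectors 3 were higher and 2 lower, beside 64.4% of all measured genes lower. The split was 5 and 0 after centring on the median gene and 1 and 4 when both libraries were scaled to the same total. MX2, a relative of MX1, was at 0.0693 and 0.0939 RPKM and SAMD9L at 0.0426 and 0.0433 RPKM, or 6 and 4 reads and 2 and 1 reads.

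Of the remaining induced genes, IFI35 (chromosome 17, 41158742 to 41166473, hg19) was the one with a large ratio. IFI35, whose product forms a complex with NMI, was at 1.54 RPKM with the empty vector and 0.313 RPKM with ANGPTL4, from 20 and 2 reads, a ratio of 0.203 (0.0230 to 0.837). NMI itself was at 3.67 and 4.89 RPKM, a ratio of 1.33 with an interval of 0.930 to 1.89 that included 1. No other row of the tables overlaps the region of IFI35. IFI44, a cytoplasmic protein of uncertain function, was at 14.0 and 12.5 RPKM, and PARP14, a mono-ADP-ribosyltransferase, at 5.60 and 5.80 RPKM. PARP9, which acts with DTX3L, was at 2.43 and 2.98 RPKM, a ratio of 1.22 (0.924 to 1.61), and DTX3L at 8.48 and 8.01 RPKM. IFI6, a small membrane protein that limits apoptosis, was at 4.22 and 6.08 RPKM from 24 and 17 reads, and its ratio of 1.44 was the highest of the members with a ratio, with an interval of 0.726 to 2.79 that included 1. IFI6 and PARP9 were higher and IFI35 lower under each scaling, while PARP14 was lower with the same total and IFI44 higher with the length and GC bins. IFI35 counted as measured through the control alone, so its direction was set by that minimum and its kept sign is no test of it. IFI27 was at 0.256 and 0.298 RPKM, IFI44L at 0.0891 and 0.121 RPKM, and XAF1, a proapoptotic gene, was listed at 0 in the control and at 0.0464 RPKM, 1 read, in the ANGPTL4 library.

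IFNB1, the gene of IFN-beta (chromosome 9, 21077104 to 21077943, hg19), was listed at 0 in the control and at 1.10 RPKM in the ANGPTL4 library. On its single exon of 840 bases that value equals 3 reads. A count of 0 in the control allows up to 0.543 RPKM, and the interval of the ratio reached down to 0.840, so no difference was detectable at this depth and no fold is given. IFNB1 is the member counted as 2-fold higher, with a log2 ratio of 1.07, and with a minimum of 20 reads over both libraries no member was.

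Members that lie side by side on a chromosome often differed far more from each other than between the libraries. IFI44 and IFI44L are 3650 bases apart, and IFI44 was 156.6-fold higher in RPKM in the control and 103.3-fold higher in the ANGPTL4 library. IFI44 had at least 257 and 113 reads and IFI44L 6 and 4, so these folds are imprecise. They also depend on the exon lengths used for RPKM. The promoters of both genes hold the response element motif printed above, IFI44 once and IFI44L 2 times. SAMD9 and SAMD9L are 12031 bases apart, and SAMD9 had 403 and 193 reads where SAMD9L had 2 and 1. MX1 was 17.6-fold and 13.8-fold higher than MX2, and HERC5 was 5.36-fold and 5.45-fold higher than HERC6. OAS3 was 3.68-fold and 4.18-fold higher than OAS1. In these 5 pairs the same gene was the higher one in both libraries, as it was for OAS3 over OAS2 (3.39-fold and 2.66-fold) and for RSAD2 over CMPK2 (1.35-fold and 3.55-fold). The order of IFIT5 and IFIT1 was not the same, with an RPKM ratio of 1.08 for the empty vector and 0.846 for ANGPTL4. IFIT3, with 11 and 1 reads, was below IFIT2 and IFIT1 in both.

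**Figure D3:**
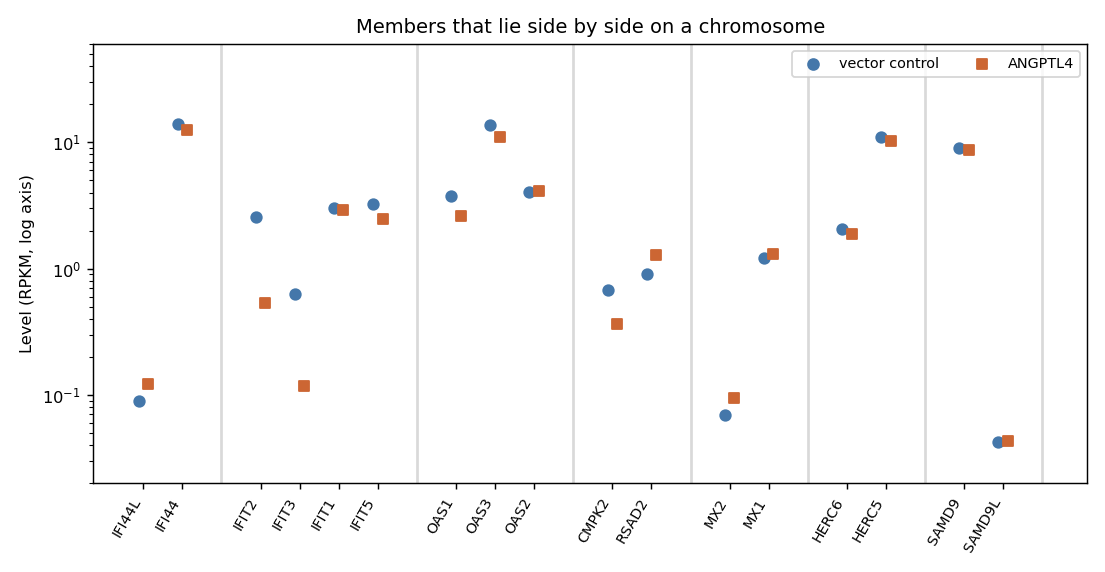
Level in RPKM (log axis) of the 17 members that stand in 7 chromosomal groups with gaps under 100 kb, in chromosomal order within a group, in the vector control (circles) and ANGPTL4 (squares) libraries. IFI44 and SAMD9 stand far above their neighbours in both libraries, IFI44 by 156.6-fold and 103.3-fold over only 6 and 4 reads of IFI44L. Of the IFIT group only IFIT2 and IFIT3 show widely separated symbols.

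Interferon genes themselves were nearly all at 0. Of 20 further ligand genes present in the tables, 17 were listed at 0 in both libraries, among them all 13 IFN-alpha genes, IFNG, IFNE, IFNK and IFNW1. The 3 others were IFN-lambda genes, the type III ligands made by epithelia. IFNL1 was at 9.41 RPKM with the empty vector and 12.3 RPKM with ANGPTL4 (53 and 34 reads), a ratio of 1.30 (0.822 to 2.04), IFNL2 at 3.30 and 5.04 RPKM (16 and 12 reads), and IFNL3 at 2.32 and 0.943 RPKM (5 and 1 reads). All 3 intervals included 1, and IFNL2 and IFNL3 are nearly identical, so their reads can be exchanged. Ligand transcripts of type III but hardly any of type I were therefore present in both libraries.

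Of the measured genes in the other interferon lists, the receptor chain IL10RB differed most on the log2(RPKM + 1) scale, at -0.96, while IFNL3, with 5 and 1 reads, had the lowest ratio, 0.407 (0.00860 to 3.63). IL10RB, the receptor chain shared by IFN-lambda and IL-10 family cytokines, was at 7.11 RPKM with the empty vector and 3.16 RPKM with ANGPTL4 (119 and 26 reads), a ratio of 0.444 (0.279 to 0.683). Its partner for IFN-lambda, IFNLR1, was at 1.55 and 2.01 RPKM, a ratio of 1.30 (0.808 to 2.07). For the type I receptor, IFNAR1 was at 4.86 and 3.31 RPKM, a ratio of 0.681 (0.510 to 0.900), and IFNAR2 at 3.40 and 2.35 RPKM, a ratio of 0.691 (0.457 to 1.02). The kinase JAK1 was at 17.6 and 12.3 RPKM, a ratio of 0.701 (0.605 to 0.810), while TYK2 was at 12.9 and 13.3 RPKM, a ratio of 1.03 (0.891 to 1.19). PIAS1, a SUMO ligase that restrains interferon signalling, was at 5.52 and 7.93 RPKM, a ratio of 1.44 (1.23 to 1.68). Over the 16 measured genes of this list 10 were lower and 6 higher, beside 64.4% of all measured genes lower. None differed 2-fold on the log2(RPKM + 1) scale, and the median log2 ratio was -0.17. Intervals lay below 1 for 6 (26.2% of all measured genes with reads) and above 1 for 1 (8.37% of all). After centring on the median gene 8 were lower and 8 higher.

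Most genes of nucleic acid sensing were lower in the ANGPTL4 library, as were most of all measured genes, and further induced genes were split. Of 16 measured sensing genes 12 were lower and 4 higher, beside 64.4% of all measured genes lower. Their median log2 ratio was -0.18, with no 2-fold difference, and 10 were lower and 6 higher after centring. Their intervals lay below 1 for 3 and above 1 for 1, against 26.2% and 8.37% of all measured genes with reads. MAVS, the mitochondrial adaptor of RIG-I and MDA5, was at 30.7 RPKM with the empty vector and 31.9 RPKM with ANGPTL4, a ratio of 1.04 (0.974 to 1.11), and IRF3, which it activates, at 13.6 and 10.5 RPKM, a ratio of 0.776 (0.628 to 0.953). At the ends of this list were TRAF3, a ubiquitin ligase of the pathway, at 10.3 and 7.11 RPKM, NLRX1 at 3.95 and 2.67 RPKM, IFI16 at 16.9 and 18.99 RPKM and TRIM25, a ligase that acts on RIG-I, at 19.3 and 22.04 RPKM. Of 32 measured further induced genes 17 were lower and 15 higher, with a median of -0.026 (0.085 after centring, with 12 lower and 20 higher), intervals below 1 for 5 (26.2% of all genes) and above 1 for 4 (8.37% of all), and no 2-fold difference. Its ends were the chemokine CXCL11 at 4.15 and 2.76 RPKM, TRIM21 at 4.21 and 2.85 RPKM, APOL2 at 3.06 and 4.27 RPKM and LGALS3BP at 54.5 and 72.4 RPKM, the last with a ratio of 1.33 (1.22 to 1.45).

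**Figure D4:**
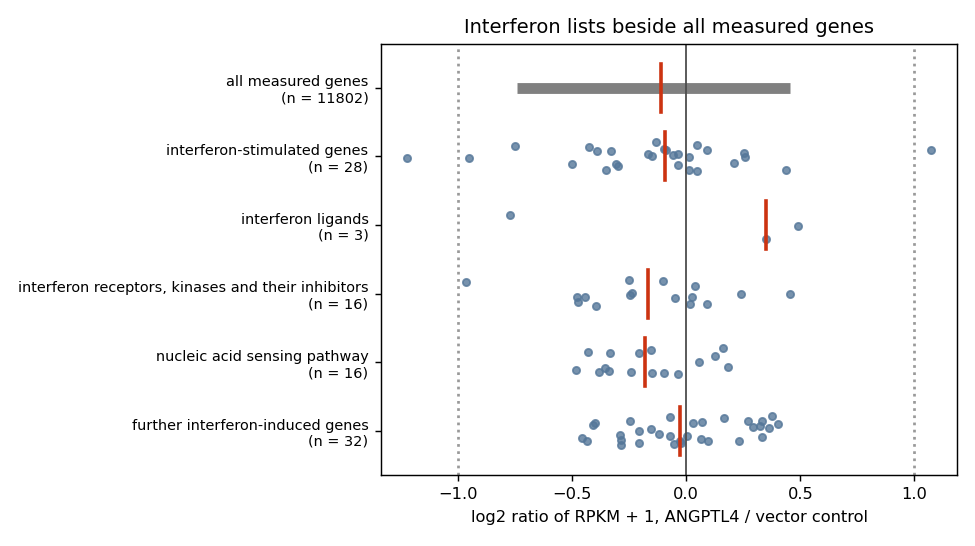
Log2 ratio of RPKM + 1, ANGPTL4 over vector control, for the measured genes of each interferon list (points), with list medians in red and, for all 11802 measured genes, the range from percentile 5 to percentile 95 as a grey bar. The median of the interferon-stimulated genes, -0.093, lies beside that of all genes, -0.11, and IFIT2, IFI35, IRF9 and IFNB1 are the members outside the grey bar of -0.74 to 0.45.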

How the data were processed

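Total RNA was sequenced in 2 libraries, and the label for transfection gave the group. Each gene row holds an RPKM value that the authors deposited, per the file headers, on hg19 coordinates, per the submitters' processing notes. Aligner, counting program, annotation release, strand use and the treatment of multiply matching reads are not given in the sources used here, so reads of overlapping or near-identical genes are uncertain.

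Rows with the same symbol were summed, and 27 names turned into dates were kept apart. Depth was the smallest total tried at which all 13 mitochondrial genes became whole reads, to a looser tolerance than that used for rows. Each row's exon length was one at which both libraries gave whole reads (tolerance 5e-05 reads plus 1e-08 of the reads). It lay within 10% of the GENCODE 29 exon length (28 members) or else was the smallest (8 members, whose reads are minimum numbers). Of 18483 rows above 0, 71.1% were settled in the first way. Intervals of ratios are exact binomial (scipy 1.17.1), those of shares Wilson, both at 95% and for counting error only. Groups were not tested against each other. The procedures were tested on simulated data with counting error only and reference exon lengths close to the true ones. That setting does not cover the 8 members with minimum numbers of reads, PCR copies or overlapping genes. The text names every member, and of the other lists IFNAR1, IFNAR2, JAK1, TYK2, IRF3, MAVS and 2 measured genes at either end; a gene that the rule also names is not reported here. NMI, DTX3L and LIPA were added after their values were seen. Members and lists were chosen with earlier results of these data known. Log2 ratios used a pseudocount of 1 (alternatives 0.1 and 5) and a minimum of 1 RPKM (alternatives none and 5). Further alternatives were 5 scalings, the highest row per symbol and, added after seeing the data, at least 20 reads over both libraries.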

Additional observations from a re-analysis of the deposited data

How the results depend on the processing

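No paired analysis was possible because each group held 1 library, and no library could be left out. The median log2 ratio of the measured members became positive after centring on the median gene (0.018) and within bins of exon length and GC (0.056), and that of the further induced genes became 0.085 after centring, 0.086 within those bins and 0.077 when mitochondrial, ribosomal protein and small RNA genes were left out of the total. The median of all genes moved from -0.11 to -0.25 when both libraries were scaled to the same total, and 4 members were then higher and 23 lower, against 15 and 13 after centring and 17 and 11 within the bins, since these scalings shift every gene together or by bin. The number of members at least 2-fold higher was 0 with a pseudocount of 5, a minimum of 5 RPKM, the same total, and at least 20 reads over both libraries. The number at least 2-fold lower was 3 with a pseudocount of 0.1 and 0 with a pseudocount of 5, which shrinks ratios of low genes, or a minimum of 5 RPKM, which leaves IFIT2 out. With a pseudocount of 0.1, 1 ligand and 1 receptor gene were at least 2-fold lower, and 1 receptor gene with the same total. Of 396 log2 ratios of single members under 11 alternatives, 393 moved by less than their counting error. The 3 others were DDX60 at -0.51 and OASL at -0.30 with the same total and DDX60 at -0.18 within the length and GC bins. The count of 393 is not a measure of stability. Changing the minimum RPKM, taking the highest row or requiring 20 reads cannot alter the log2 ratio of a single member. Counting error is also wide where reads are few. IFNB1 went from 1.07 to 3.59 with a pseudocount of 0.1 and still counted as within it. Among measured members, 16 of 28 kept their sign under all 5 scalings. The 16 include IFNB1, RSAD2, IFIT2, IFI35 and IRF9, whose direction was set by the minimum of 1 RPKM. As the scalings shift genes together or by bin, a kept sign is no test of a direction. Depth limits the low members, since 1 read on 2 kb of exon equals 0.0761 RPKM with the empty vector and 0.155 RPKM with ANGPTL4.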
